A study of Mus musculus with 15 samples.

Results

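The Cre+ minus Cre- difference in mouse kidney was compared between 7 and 4 months of age, gene by gene, to see which parts of the response to the PRCC-TFE3 fusion had reached full size at 4 months and which grew later. The quantity is the interaction: the log2 difference between Cre+ and Cre- kidneys at 7 months minus the same difference at 4 months. It used 15 of the 15 arrays of the study and 22180 genes, each read from the 1 table entry with exactly 1 gene symbol and, where a gene had several such entries, the highest mean. Every animal, controls included, carried the knock-in Rosa26-LSL-PRCC-TFE3, which is silent behind a stop cassette until Cre recombinase removes it. The groups were 4 PRCC-TFE3; KSP-Cre- and 4 PRCC-TFE3; KSP-Cre+ mice aged 4 months, and 3 PRCC-TFE3; KSP-Cre- and 4 PRCC-TFE3; KSP-Cre+ mice aged 7 months, with 1 array per mouse. They are called Cre- and Cre+ below, and arrays are named by the replicate number in their titles.

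KSP-Cre is driven by the Cdh16 promoter, which is active in tubule epithelium, so recombination is directed to tubule cells, while RNA came from the dissected kidney with all its cell types. Mice with the Cre transgene alone were not among the groups, so what Cre does by itself and what the fusion does cannot be told apart. In such bulk RNA, fewer cells of a type and less RNA per cell cannot be told apart either. The labels give no sex.

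PRCC-TFE3 is a chimaeric transcription factor found in translocation renal cell carcinoma. TFE3 belongs to the MiT family of basic helix-loop-helix factors, which bind E-box and M-box sequences and drive genes of lysosomes, of pigment cell melanosomes and of the Rag GTPase pathway that reports nutrients to mTORC1. In a healthy kidney the proximal tubule reabsorbs glucose, amino acids and phosphate and depends on fatty acid oxidation and mitochondrial respiration. Injured tubules lose these programmes, switch on adhesion and injury genes, and are often accompanied by macrophages, lymphocytes and new matrix.

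Promoters are shown first for a pair of genes whose rise was at full size at 4 months, Reln and Tgfb2, and a pair whose rise grew, Gpnmb and Cd68, because the letters that mark the MiT and AP-1 motifs can be seen in them. Each runs 5′ to 3′ on the gene's strand from 250 bases before to 50 after the start, from RefSeq on GRCm38.p6. Capitals mark CACGTG, the E-box core, in the Reln promoter (chr5:22344656-22344955, minus strand) and the Tgfb2 promoter (chr1:186705940-186706239, minus strand). They mark TGACTCA, the AP-1 motif, or its reverse complement TGAGTCA, in the Gpnmb promoter (chr6:49036268-49036567, plus strand) and the Cd68 promoter (chr11:69666121-69666420, minus strand).
Reln: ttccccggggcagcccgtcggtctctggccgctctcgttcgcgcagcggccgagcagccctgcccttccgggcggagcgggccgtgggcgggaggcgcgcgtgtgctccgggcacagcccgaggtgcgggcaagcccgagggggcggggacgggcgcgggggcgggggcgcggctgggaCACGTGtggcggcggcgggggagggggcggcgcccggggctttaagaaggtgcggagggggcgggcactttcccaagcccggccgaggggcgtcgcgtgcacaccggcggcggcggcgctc
Tgfb2: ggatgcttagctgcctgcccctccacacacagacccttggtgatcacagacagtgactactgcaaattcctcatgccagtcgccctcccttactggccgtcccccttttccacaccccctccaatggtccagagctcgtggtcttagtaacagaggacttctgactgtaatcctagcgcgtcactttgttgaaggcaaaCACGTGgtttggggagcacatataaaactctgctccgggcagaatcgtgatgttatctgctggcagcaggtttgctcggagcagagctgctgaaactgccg
Gpnmb: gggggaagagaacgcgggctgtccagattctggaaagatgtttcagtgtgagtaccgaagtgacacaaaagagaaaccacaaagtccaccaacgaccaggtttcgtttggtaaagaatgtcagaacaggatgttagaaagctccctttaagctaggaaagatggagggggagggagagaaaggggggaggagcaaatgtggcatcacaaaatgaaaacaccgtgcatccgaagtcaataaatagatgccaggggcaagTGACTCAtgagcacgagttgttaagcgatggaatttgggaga
Cd68: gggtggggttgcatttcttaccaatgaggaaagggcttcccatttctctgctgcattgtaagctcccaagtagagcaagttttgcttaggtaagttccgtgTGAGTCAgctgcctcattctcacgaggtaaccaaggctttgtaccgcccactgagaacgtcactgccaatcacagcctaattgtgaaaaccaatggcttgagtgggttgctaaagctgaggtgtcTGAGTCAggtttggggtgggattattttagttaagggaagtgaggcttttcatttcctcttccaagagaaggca
The Cd68 promoter held 2 matches and the others 1 each. As these genes were picked for holding a motif, the pairs do not show that the classes differ in it.

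These motifs were searched on both strands in 20611 RefSeq promoters of 16990 of the genes tested, and the shares are descriptions. CACGTG was in 8.07% of all promoters, in 12.3% (8 of 65) of those of genes at full size and higher, and in 7.46% (5 of 67) and 5.63% (8 of 142) of those whose rise grew or was late. Its share was 22.5% (9 of 40) in promoters of genes whose fall grew and 6.7% (13 of 194) in those of genes whose fall was late. The longer palindrome TCACGTGA, which contains CACGTG, was in 1.26% of all promoters and in 1 of 65 of the full-size group. TGACTCA was in 4.78% of all promoters, in 7.69% of the full-size group, and in 10.4% and 9.86% of the promoters of genes whose rise grew or was late. It was also in 7.5% (3 of 40) and 7.73% (15 of 194) of those of genes whose fall grew or was late. The M-box core TCATGTG was in 2.99% of all promoters, in 6.34% (9 of 142) of those of late risers and in 2.58% (5 of 194) of those of late falls. A match is no evidence of binding.

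The arrays were of kidney by their markers. In Cre- kidneys Slc34a1, the proximal phosphate transporter, lay between 12.03 and 12.28, Umod of the thick ascending limb between 11.68 and 12.02, and Aqp2 of the collecting duct between 8.15 and 9.12, all as log2 RMA values. The adrenal markers Cyp11b1 and Mc2r stayed at or below 3.22 in every array. Y-linked genes separated 8 arrays, with a mean of 5.75 or more (high-Y arrays), from 7 at 2.83 or less (low-Y arrays). Each group held 2 arrays of each kind, except the 7-month Cre- group with 2 high and 1 low. Of the 4-month Cre+ arrays, replicate 1 lay nearest the controls on the first principal component, at -5.3 against 7.9 to 12.1 for the other three and -35.3 to -19.8 for the Cre- arrays of both ages.

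The interaction passed the test in 475 genes (2.14% of the genes tested), with a larger value at 7 months in 213 (0.96%) and a smaller one in 262 (1.18%), by limma with Benjamini-Hochberg adjustment over all genes and a threshold of 0.05. With quantile normalization the higher calls made up 56.5% of all calls, and with arrays centred on their median 55.1%, against 44.8% here, so the balance of the directions depended on scaling. The median interaction was 1.14 among the higher calls and -0.91 among the lower ones, with a median standard error of 0.20, and the median over all genes was -0.08. Without replicate 1 of the 4-month Cre+ group, the counts were 128 higher and 148 lower. They were 108 and 117 without replicate 2 of the 7-month Cre- group, and 121 and 140 without replicate 2 of the 4-month Cre- group. The lower count also moved by over 1.5 times, to between 148 and 163, without replicate 4 of either 4-month group, replicate 3 of the 7-month Cre- group, or replicate 2 or 3 of the 7-month Cre+ group. In the high-Y and the low-Y arrays, which hold fewer mice, 59 and 88 genes passed.

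Nearly every gene of the interaction also changed with age in Cre+ kidneys. Of the 475 genes, 468 also passed for 7 against 4 months within Cre+ kidneys, where 10.8% of all genes passed (4.12% higher and 6.71% lower), and 0 within Cre- kidneys, where 1 gene (0.00451%) passed. That gene, the predicted gene Gm7609, was 0.98 higher at 7 months and was named after its value was seen. In Cre- kidneys 600 genes had an unadjusted p below 0.05. The comparisons share arrays, so these counts describe the interaction and do not add support to it.

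Genes were sorted by time from the same fit. A gene was called growing when it passed at 4 months, at 7 months and in the interaction in 1 direction, and late when it passed at 7 months and in the interaction but not at 4 months. It was called at full size when it differed at least 2-fold and passed at 4 months, its interaction did not pass, and the unadjusted 95% interval of the interaction lay between -1 and 1 on the log2 scale. The smallest interaction that passed was 0.53 in absolute size. The limits of full size thus include sizes at which other genes were called growing or late. At 4 months 784 genes (3.53%) passed, 606 higher (2.73%) and 178 lower (0.803%), and at 7 months 4991 (22.5%), 2597 higher (11.7%) and 2394 lower (10.8%). Of all genes, 68 (0.307%) were at full size, 64 higher (0.289%) and 4 lower (0.018%). Growing genes numbered 106 (0.478%), 68 higher (0.307%) and 38 lower (0.171%), and late genes 359 (1.62%), 145 higher (0.654%) and 214 lower (0.965%). In 5 genes (0.0225%) the difference shrank. Leaving out 1 array brought the growing count to between 57 and 68 for any 4-month Cre- array, replicates 2, 3 or 4 of the 4-month Cre+ group, replicate 2 of the 7-month Cre- group or replicate 3 of the 7-month Cre+ group. The late count came to 186 without replicate 1 of the 4-month Cre+ group, to 189 and 163 without replicate 2 of the 4-month and 7-month Cre- groups, and to 226 and 230 without replicates 2 and 3 of the 7-month Cre+ group. The remaining 4522 genes (20.4%) that passed at either age could not be placed, and a late gene may have differed at 4 months by less than the test could detect.

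At 4 months rises of at least 2-fold outnumbered falls, and the falls were too few to compare how the 2 directions split. Of 149 genes that passed at 4 months and were at least 2-fold higher, 64 were at full size, 24 grew, 2 shrank and 59 could not be placed. By the same rule 11 genes were lower at 4 months, of which 4 were at full size, 1 grew and 6 could not be placed. At 7 months 681 genes passed and were at least 2-fold higher, and 450 passed and were at least 2-fold lower. The count at full size depended on 1 array: without replicate 1 of the 4-month Cre+ group it was 110, of which 65 were among the 68. That array was the nearest to the controls of its group in 159 of the 213 genes with a larger interaction, in 92 of the 262 with a smaller one and in 34 of the 64 at full size and higher. The same count was not made over all genes, so these numbers do not set these genes apart from others. Just inside the limit of the interval lay Cck, with an interval of -0.96 to 1.0, and Map1b, with 0.14 to 0.97, and just outside it Ivl, with -1.0 to -0.22, and Slc38a1, with -0.23 to 1.01. Near the threshold of the interaction test, Laptm5 (0.84, adjusted p = 0.0494) lay just inside and Cpt2 (-0.68, adjusted p = 0.0506) just outside.

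**Figure D1:**
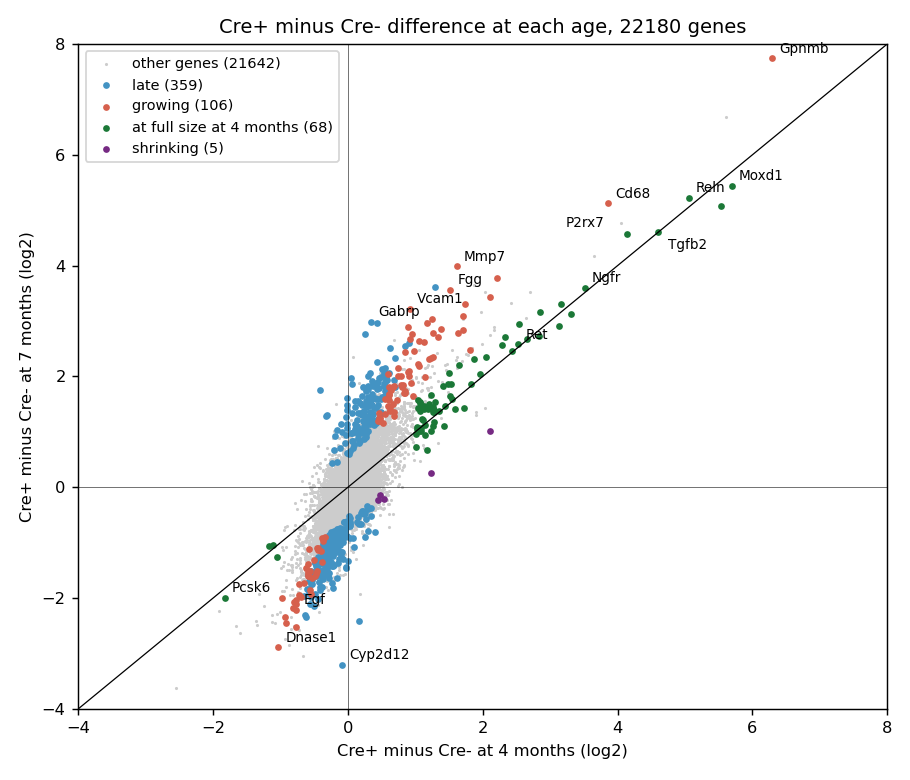
Each point is 1 gene, with its Cre+ minus Cre- difference in log2 at 4 months (x axis) and at 7 months (y axis); the diagonal marks equal differences and colours mark the time class, with the number of genes in the key. The 68 full-size genes follow the diagonal up to Moxd1 (5.69 and 5.44), while Gabrp (0.34 and 2.99) and Cyp2d12 (-0.08 and -3.21) lie near 0 at 4 months and far from it at 7 months.

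Neither partner of the fusion, as read by the array, passed in the interaction. Tfe3 had an interaction of 0.19 ± 0.14 (standard error from the fit, as for every error given after ±; adjusted p = 0.52) and Prcc of -0.33 ± 0.18 (adjusted p = 0.37). At 4 and 7 months the differences were 0.03 and 0.22 for Tfe3 and 0.09 and -0.25 for Prcc, and neither gene passed at either age. Whether the probes read the transgene was not tested, so these values do not give the level of the fusion. Cdh16, whose promoter drives the Cre, had an interaction of -0.26 ± 0.18 (adjusted p = 0.50), with differences of -0.17 at 4 months and -0.43 at 7 months.

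Reln, Moxd1 and Tgfb2 were among the 10 largest rises at full size at 4 months. Reln encodes reelin, a secreted matrix glycoprotein known from neuronal migration. At 4 months it read 4.78, 4.56, 4.60 and 5.04 in Cre- and 9.82, 9.73, 9.74 and 9.92 in Cre+ kidneys, and at 7 months 4.60, 4.50 and 4.80 in Cre- and 9.86, 10.05, 9.68 and 9.84 in Cre+ kidneys. The Cre+ arrays of the 2 ages overlapped and every one lay far above every Cre- array. The difference was 5.06 at 4 months and 5.22 at 7 months, and the interaction of 0.17 had a 95% interval of -0.20 to 0.53.

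Moxd1 encodes a copper monooxygenase related to dopamine beta-hydroxylase. Its Cre+ arrays read 9.17, 9.13, 9.37 and 9.34 at 4 months and 8.51, 9.27, 8.49 and 9.21 at 7 months, against 3.19 to 4.10 in all Cre- arrays. The difference was 51.7-fold at 4 months and 43.4-fold at 7 months, and the interval of the interaction ran from -0.89 to 0.39. Tgfb2, a ligand of the TGF-beta receptors, read 9.04, 9.14, 9.26 and 9.32 in Cre+ kidneys at 4 months and 9.15, 8.82, 8.85 and 9.30 at 7 months, against 3.90 to 5.01 in Cre- kidneys. Its differences of 4.59 and 4.60 gave an interaction of 0.01, with an interval of -0.67 to 0.68. In both genes the Cre+ arrays of the ages overlapped.

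Some cell-surface receptors were also at full size. P2rx7, an ATP-gated channel, was 17.6-fold higher at 4 months and 23.7-fold at 7 months, and its interaction of 0.43 (adjusted p = 0.31) had an interval of 0.0 to 0.86. Ngfr, the p75 neurotrophin receptor, was 3.51 higher at 4 months and 3.60 at 7 months on the log2 scale, with an interval of -0.27 to 0.46 for the interaction. Ret, the GDNF receptor tyrosine kinase that guides branching of the embryonic ureteric bud, read 7.05, 7.12, 6.80 and 6.99 in Cre+ kidneys at 4 months and 6.73, 7.01, 6.97 and 7.21 at 7 months. Its Cre- arrays lay between 4.13 and 4.94. The interaction of Ret was 0.05 ± 0.25 with an interval of -0.48 to 0.59, but it was -0.49 in the high-Y and 0.65 in the low-Y arrays. Ramp3, which modifies the calcitonin receptor family, was 3.13 and 2.90 higher, with an interval of -0.64 to 0.20.

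**Figure D2:**
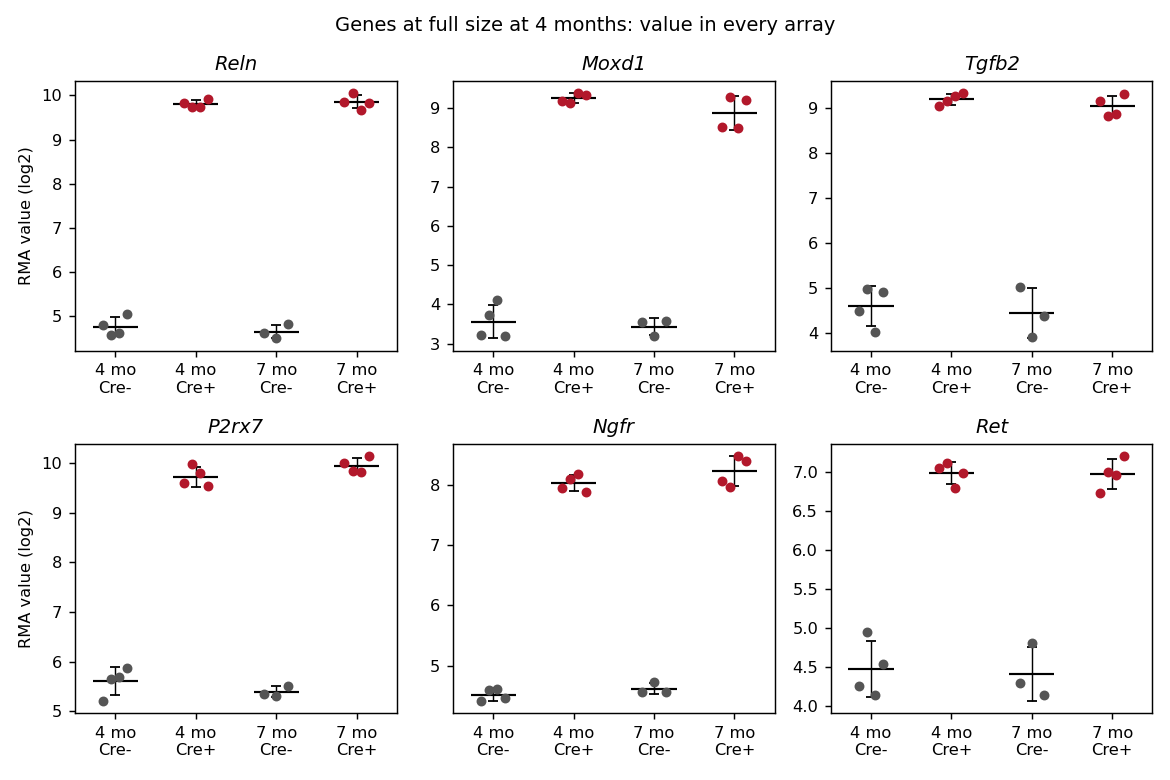
RMA value (log2, y axis) in every array for 6 genes at full size at 4 months, by age and genotype, with Cre- arrays in grey, Cre+ arrays in red, the group mean as a bar and its SD as whiskers. In Reln the 4 Cre+ arrays sit between 9.73 and 9.92 at 4 months and between 9.68 and 10.05 at 7 months, and in none of the 6 genes do Cre+ and Cre- arrays overlap.

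Some full-size genes act at lysosomes or melanosomes. Mcoln3, a calcium channel of endosomes and lysosomes, was 2.34 higher at 4 months and 2.71 at 7 months (interval of the interaction -0.19 to 0.93). Rragd, a Rag GTPase of the lysosomal surface, was 2.29-fold and 2.82-fold higher (interval -0.06 to 0.65). Gpr143, a melanosome receptor, was 2.84 and 3.16 higher, and Rab27a, which carries melanosomes and secretory granules, 1.51 and 1.64 higher. Ndc1, a membrane nucleoporin, was 3.31 and 3.12 higher, Snap91, a clathrin assembly protein, 3.17 and 3.31, and Tnni3k, a kinase known from heart muscle, 2.84 and 2.73. Pfkp, a phosphofructokinase isoform of glycolysis, was 1.13 and 1.46 higher.

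The lists around these genes did not move with them as a whole. In the folliculin and Rag GTPase list 5 of 22 members rose at 4 months, where 2.73% of all genes did. At 7 months 6 of its members rose and 4 fell, where 11.7% of all genes rose and 10.8% fell. In the interaction 0 of its 22 members passed. In the RET and neurotrophin list 3 of 22 rose at 4 months and 3 rose and 5 fell at 7 months, again with 0 interaction calls. The V-ATPase list (20 members), autophagy list (35) and purinergic receptor list (17) also held 0 interaction calls, where 2.14% of all genes passed, and their median interactions were -0.11, -0.08 and 0.11. The intervals of most of these genes are too wide to place them at full size, and 0 calls do not show an equal difference.

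Of 41 cell cycle genes 14 rose at 4 months, where 2.73% of all genes rose, with a median difference of 0.40. At 7 months 31 rose and 1 fell, where 11.7% of all genes rose and 10.8% fell, with a median of 0.59, and 0 of 41 passed in the interaction, whose median was 0.11. Mki67, the proliferation antigen, read 6.06, 6.24, 6.41 and 6.34 in Cre+ kidneys at 4 months and 7.12, 6.83, 6.48 and 6.86 at 7 months. Its Cre- arrays lay between 4.72 and 5.56 at 4 months and between 5.20 and 5.70 at 7 months, without overlap between genotypes at either age. Its Cre+ arrays of the 2 ages did not overlap either, as in 14 of the 68 genes at full size and in 16.8% of all genes. The differences of 1.27 and 1.39 gave an interaction of 0.12 (interval -0.42 to 0.67). Prc1, which organises the midzone of the dividing cell, was 1.15 and 0.95 higher (interval -0.71 to 0.31). Aqp3, a water channel of collecting duct principal cells, was 1.01 and 0.73 higher and was also at full size, as was Mrc1, the mannose receptor of tissue macrophages, at 1.28 and 1.53.

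Only 4 falls were at full size. Pcsk6, a proprotein convertase, differed by -1.83 at 4 months and -2.0 at 7 months, with an interaction of -0.17 (interval -0.68 to 0.34). Abca4, a lipid transporter known from the retina, differed by -1.17 and -1.06, the potassium channel gene Kcnt1 by -1.11 and -1.04, and the phosphatase gene Dusp15 by -1.06 and -1.27.

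Some of the largest 4-month rises could not be placed. Diras2, a small GTPase gene, was 48.7-fold higher at 4 months and 102-fold at 7 months, with an interaction of 1.07 (interval 0.38 to 1.75, adjusted p = 0.11), which passed the test in 1 of the fits that leave out an array. Tyrp1, a melanin-synthesis enzyme, was 16.6-fold and 27.1-fold higher, with an interaction of 0.71 (interval -0.11 to 1.53). Both were named after their values were seen.

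The most marked rise at either age was among those that grew. Gpnmb, a melanosome and lysosome glycoprotein used as a marker of TFE3 tumours, read 4.63, 4.48, 4.34 and 4.41 in Cre- and 10.21, 11.07, 10.94 and 10.82 in Cre+ kidneys at 4 months. At 7 months it read 4.51, 4.05 and 4.69 in Cre- and 12.01, 12.15, 12.37 and 12.10 in Cre+ kidneys. Every 7-month Cre+ array lay above every 4-month Cre+ array. The difference went from 6.30 to 7.74, an interaction of 1.45 ± 0.25 (adjusted p = 0.0069), and was 1.26 without replicate 1 of the 4-month Cre+ group.

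Cd68, a lysosomal glycoprotein abundant in macrophages, read 9.64, 10.60, 10.56 and 10.38 in Cre+ kidneys at 4 months and 11.40, 11.19, 11.90 and 11.41 at 7 months, against 6.14 to 6.96 in all Cre- arrays. Its interaction was 1.27 ± 0.31 (adjusted p = 0.043), and the call was lost in 11 of the 15 fits that leave out 1 array, with values of 1.06 to 1.38. Of 24 lysosomal membrane genes, 3 passed in the interaction, all higher (Cd68, Laptm5 and Scarb2), beside 0.96% of all genes. Scarb2, the receptor that carries glucocerebrosidase to lysosomes, had an interaction of 0.63 and lost its call in 11 of the same fits. Of 35 lysosomal hydrolases, Hpse, Ctss and Ctsl passed higher and Lipa lower. Ctsl, cathepsin L, had already risen by 0.96 at 4 months and had an interaction of 0.68, a call lost in 13 of those fits. Lipa, the lysosomal acid lipase, differed by -0.30 at 4 months and -1.14 at 7 months, an interaction of -0.84 ± 0.16 (adjusted p = 0.011).

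Among late risers, the largest interactions belonged to Gabrp and Adgrg2. Gabrp, a subunit of GABA-A receptors found in epithelia, read 4.22, 4.42, 3.98 and 4.07 in Cre- and 4.29, 4.68, 4.68 and 4.42 in Cre+ kidneys at 4 months. At 7 months it read 4.13, 4.01 and 4.92 in Cre- and 7.44, 7.29, 7.67 and 6.97 in Cre+ kidneys. The genotypes overlapped at 4 months and were far apart at 7 months. The differences were 0.34 and 2.99, and the interaction was 2.65 ± 0.27 (adjusted p = 0.00046).

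Adgrg2, an adhesion G-protein-coupled receptor of the epididymal duct, read 3.64, 4.37, 3.98 and 3.86 in Cre+ kidneys at 4 months, beside 3.16 to 3.87 in Cre- kidneys, and 6.76, 6.54, 6.43 and 6.67 at 7 months. Its interaction was 2.53 ± 0.27 (adjusted p = 0.00046). Hpse, the heparanase that cuts heparan sulphate chains of the matrix, read 4.34, 5.02, 4.82 and 4.93 in Cre+ kidneys at 4 months and 6.89, 6.99, 7.46 and 7.29 at 7 months, with Cre- arrays between 4.01 and 5.01. Its interaction was 2.51 ± 0.30 (adjusted p = 0.00098). A second, dimmer table entry for Hpse, with a mean of 2.36, had an interaction of -0.09.

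Mmp7, matrilysin, a metalloproteinase of injured tubules, grew rather than started late. It read 4.45, 4.92, 6.16 and 5.21 in Cre+ kidneys at 4 months and 7.62, 8.31, 7.30 and 7.88 at 7 months, against 3.36 to 4.13 in Cre- kidneys. The difference went from 1.62 to 3.99, an interaction of 2.38 ± 0.41 (adjusted p = 0.0069). A second entry for Mmp7, with a mean of 2.98, had an interaction of -0.06. Of 26 matrix proteases and inhibitors 5 passed higher and 1 lower, where 0.96% and 1.18% of all genes did.

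**Figure D3:**
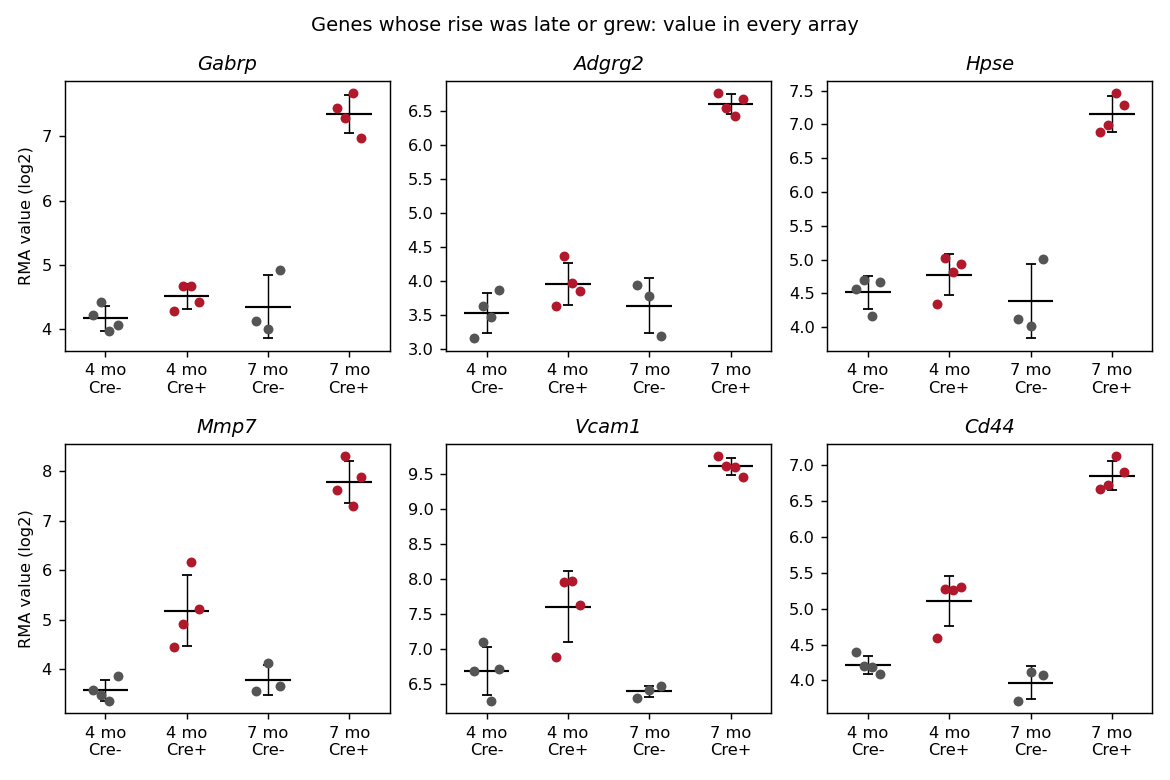
RMA value (log2, y axis) in every array for 6 genes whose rise was late or grew, by age and genotype, with Cre- arrays in grey, Cre+ arrays in red, the group mean as a bar and its SD as whiskers. In Gabrp the 4-month Cre+ arrays (4.29 to 4.68) overlap the Cre- arrays and the 7-month Cre+ arrays (6.97 to 7.67) lie above them all.

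Of 30 tubule injury genes 8 rose at 4 months and 23 at 7 months, where 2.73% and 11.7% of all genes rose, with medians of 0.33 and 0.97, and 7 passed higher in the interaction, where 0.96% of all genes did. Vcam1, an adhesion molecule for leukocytes, read 6.88, 7.95, 7.97 and 7.62 in Cre+ kidneys at 4 months and 9.76, 9.62, 9.60 and 9.46 at 7 months, with Cre- arrays between 6.25 and 7.10. Replicate 1 at 4 months lay within the Cre- range. The interaction was 2.30 ± 0.30 (adjusted p = 0.0017), and 2.06 without that array. Cd44, the hyaluronan receptor, read 4.59, 5.28, 5.26 and 5.30 in Cre+ kidneys at 4 months and 6.67, 6.73, 7.13 and 6.90 at 7 months, an interaction of 2.0 ± 0.23 (adjusted p = 0.00092). Dcdc2a, a doublecortin-domain gene of the cilium, differed by 0.06 at 4 months and 1.86 at 7 months, an interaction of 1.80 ± 0.23.

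Havcr1 and Lcn2, markers widely used for kidney injury, did not pass. Havcr1 (KIM-1) read 5.14, 6.38, 5.70 and 5.43 in Cre+ kidneys at 4 months and 8.17, 8.25, 6.46 and 6.34 at 7 months, against 4.10 to 4.79 in Cre- kidneys. Its interaction was 1.75 ± 0.55 (adjusted p = 0.12), and the 7-month arrays fell into a high pair, the high-Y arrays, and a low pair, the low-Y arrays. In the high-Y arrays the interaction was 2.85 (adjusted p = 0.024), which passed, and in the low-Y arrays 0.43 (adjusted p = 0.49). Lcn2 (NGAL) read 7.10, 7.58, 8.70 and 7.62 in Cre+ kidneys at 4 months and 9.65, 10.05, 9.73 and 9.71 at 7 months, with an interaction of 1.77 ± 0.48 (adjusted p = 0.07). Havcr1 passed in 1 and Lcn2 in 3 of the 15 fits that leave out an array. Cldn4, a claudin of tight junctions in the distal nephron, differed by 1.06 and 2.63, an interaction of 1.57 ± 0.28 (adjusted p = 0.0079).

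The 3 fibrinogen chains were the genes of the coagulation list that passed higher in the interaction, where 0.96% of all genes did. Fgg read 6.63, 7.25, 7.55 and 7.18 in Cre+ kidneys at 4 months and 9.93, 9.80, 9.92 and 8.86 at 7 months, with Cre- arrays between 5.43 and 6.18. Its interaction was 2.05 ± 0.32 (adjusted p = 0.0046), and replicate 4 at 7 months stood below the other three. Fgb, which differed by 1.3 at 4 months (adjusted p = 0.057), had an interaction of 2.31 ± 0.53 (adjusted p = 0.031). That of Fga was 1.34 ± 0.30 (adjusted p = 0.030). The calls of Fgb and Fga were lost in 5 and 6 of the fits that leave out 1 array, with values of 1.97 to 2.61 and 1.13 to 1.60. Of the 26 coagulation and fibrinolysis genes no other passed, and the list's median interaction was -0.19.

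The macrophage and antigen presentation lists had the largest median interactions, 0.75 and 0.65, while that of lymphocyte markers was 0.21 and that of chemokines and cytokines 0.35. In the macrophage and myeloid list 13 of 38 members rose at 4 months and 33 at 7 months, with medians of 0.51 and 1.38, and 8 passed in the interaction, all higher. The matching shares of all genes were 2.73%, 11.7% and 0.96%. The mean of the list in each array was 5.27, 5.64, 5.64 and 5.66 in Cre+ kidneys at 4 months and 6.43, 6.34, 6.23 and 6.35 at 7 months, against 4.83 to 5.28 in Cre- kidneys. The Cre+ ages did not overlap. C3ar1, the receptor for complement fragment C3a, differed by 0.50 at 4 months and 2.13 at 7 months, an interaction of 1.63 ± 0.22 (adjusted p = 0.0019). Cd14, the lipopolysaccharide co-receptor, differed by 0.35 and 1.92, an interaction of 1.57 ± 0.24 (adjusted p = 0.0042). Ctss, cathepsin S of antigen-presenting cells, read 7.42, 8.12, 8.01 and 7.22 in Cre+ kidneys at 4 months and 9.75, 9.85, 9.32 and 9.40 at 7 months, an interaction of 1.88 ± 0.32 (adjusted p = 0.0062). The part that a larger number of macrophages has in these values was not tested.

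Antigen presentation genes had a positive interaction in 21 of 21 members, 8 of which passed, while over all genes 8525 of 22180 were positive. Their median difference was 0.33 at 4 months and 1.13 at 7 months. H2-DMb2, a chain of the class II peptide loader, had an interaction of 1.79 ± 0.41 (adjusted p = 0.032), with the call lost in 8 of the 15 fits that leave out 1 array and values of 1.44 to 2.02. Of 32 lymphocyte genes 7 passed higher, where 0.96% of all genes did. Cd3g, a chain of the T-cell receptor complex, read 4.48, 5.16, 5.21 and 5.16 in Cre+ kidneys at 4 months and 6.0, 6.16, 6.37 and 6.72 at 7 months, an interaction of 1.42 ± 0.25 (adjusted p = 0.0079). Replicate 1 at 4 months stood apart from the other three. The B-cell gene Ms4a1 (CD20) differed by 0.11 and 1.56, and Cxcl13, the B-cell chemokine, by -0.42 and 1.76. Their interactions of 1.45 and 2.18 (adjusted p = 0.030 and 0.023) became 1.33 and 2.08 without replicate 1 of the 4-month Cre+ group, at adjusted p = 0.063 and 0.052. Over all the fits that leave out 1 array, Ms4a1 lost its call in 9 and Cxcl13 in 3.

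Of 23 interferon response genes 2 rose at 4 months and 21 at 7 months, where 2.73% and 11.7% of all genes rose, with medians of 0.37 and 0.78. The interaction was positive in 20 of the 23, with a median of 0.49, and passed in 0, where 2.14% of all genes passed. Markers of neutrophils and mast cells (16 members), endothelium (19), podocytes (12) and smooth muscle (12) also held 0 interaction calls, with medians of -0.15, -0.12, -0.05 and 0.13.

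Of 39 fibroblast and matrix genes 11 rose at 4 months and 28 rose and 1 fell at 7 months, with medians of 0.41 and 0.86, and 3 passed higher in the interaction. Among all genes 2.73% rose at 4 months, 11.7% rose and 10.8% fell at 7 months, and 0.96% passed higher in the interaction. Col12a1, a fibril-associated collagen, differed by 0.44 and 2.25, an interaction of 1.82 ± 0.26 (adjusted p = 0.0034), and Thbs2, a matricellular thrombospondin, by 0.46 and 1.98, an interaction of 1.52 ± 0.23 (adjusted p = 0.0039). Col3a1, a fibrillar collagen, had an interaction of 1.19 ± 0.30 (adjusted p = 0.049), lost in 12 of the 15 fits that leave out 1 array. It was 1.95 in the high-Y and 0.18 in the low-Y arrays. Ltbp2, which binds microfibrils, differed by 0.37 and 1.83, an interaction of 1.46 ± 0.24 (adjusted p = 0.0049), while the ligand Tgfb2 was at full size at 4 months.

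**Figure D4:**
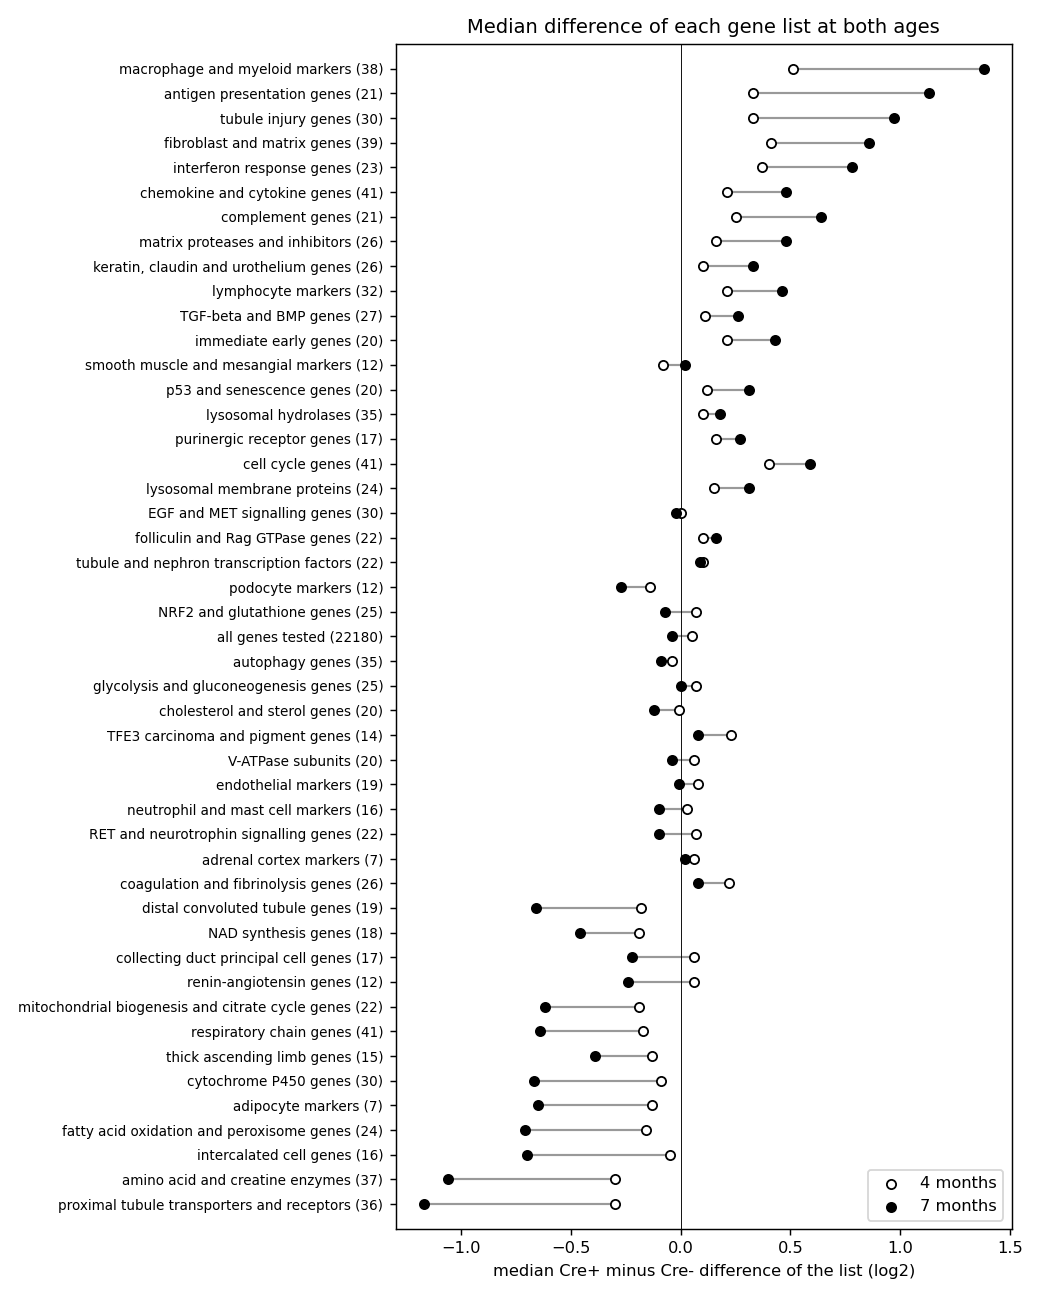
Median Cre+ minus Cre- difference (log2, x axis) of each gene list, other than the Y-linked, male-biased and female-biased ones, at 4 months (open circles) and 7 months (filled circles), ordered by the median interaction, with the number of measured genes in brackets and all genes tested among them. Macrophage (0.51 to 1.38) and antigen presentation genes (0.33 to 1.13) stand at the top and proximal tubule genes (-0.30 to -1.17) at the bottom.

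Many more genes of tubule function had fallen at 7 months than at 4. In the proximal tubule list 5 of 36 members fell and 1 rose at 4 months, where 0.803% of all genes fell, and 31 fell and 1 rose at 7 months, where 10.8% fell. The median went from -0.30 to -1.17, and 16 of the 36 passed lower in the interaction, where 1.18% of all genes did, and 0 higher. The mean of the list in each array was 9.88, 9.85, 9.79 and 9.97 in Cre+ kidneys at 4 months and 9.31, 8.89, 8.92 and 9.16 at 7 months, against 10.03 to 10.21 in Cre- kidneys. The groups formed 3 levels without overlap.

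Slc5a2 encodes SGLT2, which reabsorbs most filtered glucose. It read 10.86, 10.78, 10.80 and 10.76 in Cre- and 9.87, 9.89, 10.07 and 10.27 in Cre+ kidneys at 4 months, and 11.13, 10.80 and 10.79 in Cre- and 9.03, 8.35, 8.77 and 9.0 in Cre+ kidneys at 7 months. Neither genotype overlapped with the other at either age, and the Cre+ ages did not overlap. The difference went from -0.78 to -2.12, an interaction of -1.34 ± 0.21 (adjusted p = 0.0042). Slc6a19, the main neutral amino acid transporter, differed by -0.34 and -1.58, an interaction of -1.24 ± 0.22 (adjusted p = 0.0080). Slc22a26, an organic anion transporter, had one of the largest interactions, -2.58 ± 0.64 (adjusted p = 0.046), but lost its call in 12 of the fits that leave out 1 array, and replicate 3 of the 7-month Cre+ group read 3.13 beside 5.34, 5.40 and 6.03. Car4, the membrane carbonic anhydrase, had an interaction of -1.67 ± 0.37 (adjusted p = 0.025). Its call was lost in 4 of those fits, and it was -1.54 (adjusted p = 0.055) without replicate 1 of the 4-month Cre+ group.

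Hnf4a, the transcription factor that maintains proximal tubule identity, read 9.17, 9.0, 8.99 and 9.0 in Cre+ kidneys at 4 months and 8.42, 8.30, 8.05 and 8.01 at 7 months, against 9.33 to 9.56 in Cre- kidneys. The Cre+ ages did not overlap. The interaction was -0.86 ± 0.15 (adjusted p = 0.0082), with a 4-month difference of -0.39 (adjusted p = 0.052). The list of 22 tubule and nephron transcription factors, which holds Hnf4a, did not fall as a whole. At 7 months 7 rose and 8 fell, where 11.7% of all genes rose and 10.8% fell. Its median interaction was -0.03, and 2 members passed lower, where 1.18% of all genes did. The most negative interaction was that of Cyp2d12, a cytochrome P450, at -3.12 ± 0.65 (adjusted p = 0.019). It read 9.56, 7.18, 9.02 and 7.92 in Cre- and 8.66, 8.72, 7.55 and 8.40 in Cre+ kidneys at 4 months, and 8.70, 9.61 and 10.24 in Cre- and 7.06, 6.09, 5.95 and 6.13 in Cre+ kidneys at 7 months. The spread in Cre- kidneys of both ages was wide, with 9.02 to 10.24 in the high-Y and 7.18 to 8.70 in the low-Y arrays. Without replicate 2 or 3 of the 7-month Cre- group, both high-Y arrays, the interaction was -3.08 (adjusted p = 0.054) or -2.76 (adjusted p = 0.052). Of 30 cytochrome P450 genes in the list 0 passed in the interaction, where 2.14% of all genes did, with a median of -0.50.

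Dnase1, the secreted nuclease, and F13b, a coagulation factor subunit outside the coagulation list, were among the steepest falls. Dnase1 read 11.12, 10.20, 10.99 and 10.58 in Cre- and 9.59, 9.73, 9.58 and 9.82 in Cre+ kidneys at 4 months, and 10.54, 11.19 and 10.79 in Cre- and 8.16, 8.10, 8.17 and 7.39 in Cre+ kidneys at 7 months. The genotypes did not overlap at either age. The difference grew from -1.04 to -2.89, an interaction of -1.85 ± 0.30 (adjusted p = 0.0049). F13b differed by -0.62 at 4 months and -2.34 at 7 months, an interaction of -1.72 ± 0.25 (adjusted p = 0.0037).

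Of 37 enzymes of amino acid breakdown and creatine synthesis 9 fell and 1 rose at 4 months and 30 fell and 2 rose at 7 months, with medians of -0.30 and -1.06, and 12 passed lower in the interaction. Over all genes 0.803% fell at 4 months, 10.8% fell at 7 months and 1.18% passed lower in the interaction. Haao, an enzyme of tryptophan breakdown towards NAD, differed by -0.70 and -1.99, an interaction of -1.29 ± 0.24 (adjusted p = 0.010), and Dao, D-amino acid oxidase, by -0.27 and -1.38, an interaction of -1.11 ± 0.20 (adjusted p = 0.0089). Gatm, the first enzyme of creatine synthesis, had an interaction of -1.36 ± 0.31 (adjusted p = 0.032), lost in 9 of the fits that leave out 1 array.

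In the NAD synthesis list 3 of 18 passed lower, where 1.18% of all genes did. Nmrk1, a nicotinamide riboside kinase, read 8.37, 8.35, 8.56 and 8.19 in Cre- and 7.93, 7.58, 7.86 and 7.85 in Cre+ kidneys at 4 months, and 8.26, 8.54 and 8.24 in Cre- and 6.61, 6.48, 6.49 and 6.36 in Cre+ kidneys at 7 months. The difference grew from -0.56 to -1.86, an interaction of -1.30 ± 0.16 (adjusted p = 0.0013). Acmsd, which diverts the tryptophan pathway away from NAD, differed by -0.41 and -1.86, an interaction of -1.45 ± 0.29 (adjusted p = 0.016).

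In the glycolysis and gluconeogenesis list 4 of 25 passed lower in the interaction, where 1.18% of all genes did. Fbp1, fructose bisphosphatase, differed by -0.34 and -1.25, an interaction of -0.91 ± 0.16 (adjusted p = 0.0084). G6pc, glucose 6-phosphatase, had an interaction of -1.20 ± 0.28 (adjusted p = 0.033) and Pcx, pyruvate carboxylase, of -1.01 ± 0.25 (adjusted p = 0.041). Their calls were lost in 8 and 10 of the fits that leave out 1 array, and Pcx read -0.84 (adjusted p = 0.061) without replicate 1 of the 4-month Cre+ group. In the same list Pfkp, of glycolysis, was at full size and higher.

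**Figure D5:**
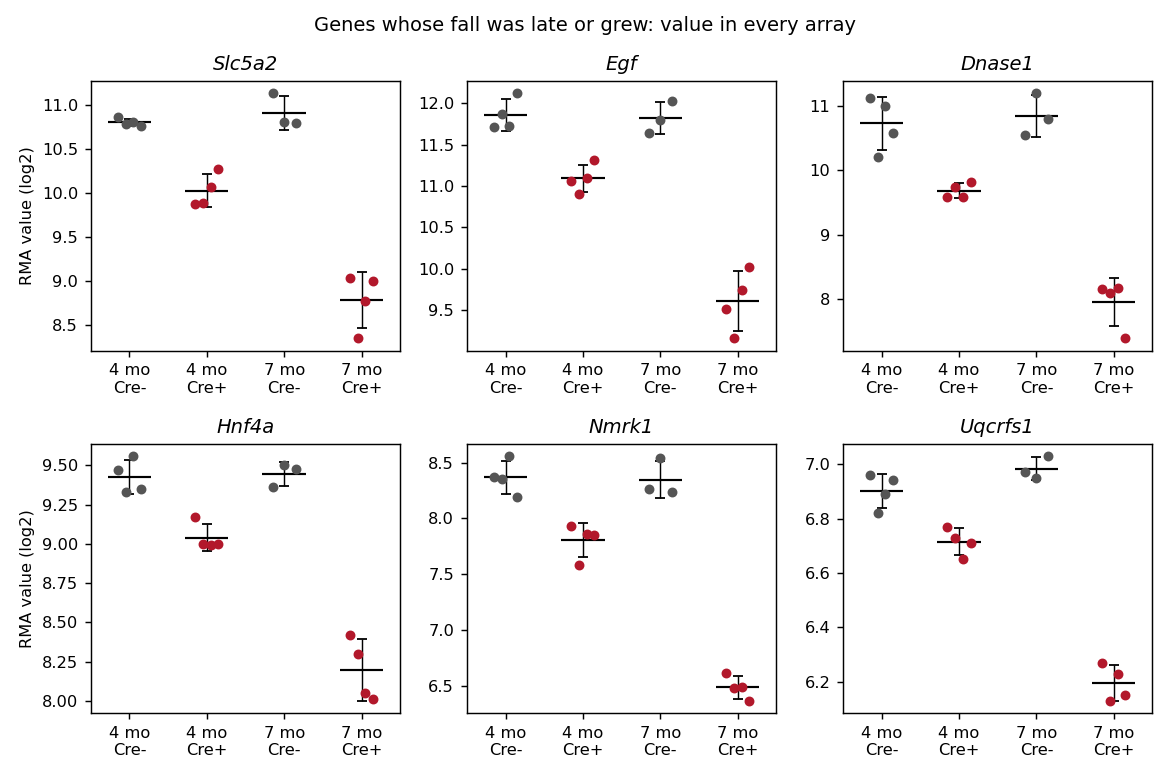
RMA value (log2, y axis) in every array for 6 genes whose fall was late or grew, by age and genotype, with Cre- arrays in grey, Cre+ arrays in red, the group mean as a bar and its SD as whiskers. In Nmrk1 the Cre+ arrays lie between 7.58 and 7.93 at 4 months and between 6.36 and 6.61 at 7 months, below the Cre- arrays at 8.19 to 8.56.

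Respiratory chain genes had interactions in one direction. The interaction was negative in 41 of 41 respiratory chain genes, where 13655 of all 22180 genes were negative, and 3 of the 41 passed. At 7 months 36 fell, and at 4 months 1 did, with medians of -0.64 and -0.17. Among all genes 10.8% and 0.803% fell at these ages, and 1.18% passed lower in the interaction. The mean of the list in each array was 8.91, 8.78, 8.95 and 9.0 in Cre+ kidneys at 4 months and 8.60, 8.48, 8.63 and 8.53 at 7 months, against 9.0 to 9.26 in Cre- kidneys. Uqcrfs1, the Rieske protein of complex III, read 6.77, 6.73, 6.65 and 6.71 in Cre+ kidneys at 4 months and 6.27, 6.13, 6.23 and 6.15 at 7 months, an interaction of -0.60 ± 0.12 (adjusted p = 0.015). Ndufa9 of complex I had an interaction of -0.65 ± 0.14 (adjusted p = 0.023) and Sdhb of complex II of -0.60 ± 0.15 (adjusted p = 0.042). They lost their calls in 1 and 12 of the fits that leave out 1 array; for Ndufa9 the array was replicate 1 of the 7-month Cre- group.

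Most interactions in the fatty acid oxidation and citrate cycle lists were negative too. In the fatty acid oxidation and peroxisome list the interaction was negative in 24 of 24 and passed in 4, where 1.18% of all genes passed lower. The medians of the list were -0.16 at 4 months and -0.71 at 7 months. Ehhadh, the peroxisomal bifunctional enzyme, differed by -0.15 and -1.13, an interaction of -0.98 ± 0.22 (adjusted p = 0.027) whose call was lost in 7 of the fits that leave out 1 array. In the mitochondrial biogenesis and citrate cycle list 21 of 22 interactions were negative and 1 passed, that of Idh3a, a subunit of isocitrate dehydrogenase, at -0.58 ± 0.13 (adjusted p = 0.027), with a call lost in 7 of those fits.

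Some genes of the distal nephron also fell. Egf, the growth factor made in the thick ascending limb and distal tubule, read 11.71, 11.87, 11.73 and 12.12 in Cre- and 11.06, 10.91, 11.10 and 11.31 in Cre+ kidneys at 4 months, and 11.64, 11.80 and 12.03 in Cre- and 9.52, 9.16, 9.75 and 10.02 in Cre+ kidneys at 7 months. The genotypes and the Cre+ ages did not overlap. The difference grew from -0.77 to -2.21, an interaction of -1.45 ± 0.23 (adjusted p = 0.0049), which was -1.84 in the high-Y and -0.96 in the low-Y arrays. Tmem207, a membrane protein of this segment, differed by -0.92 and -2.46, an interaction of -1.54 ± 0.30 (adjusted p = 0.015). Umod, the abundant protein of the same segment, had differences of 0.31 and 0.29 and an interaction of -0.02. Of 15 thick ascending limb genes 3 passed lower, where 1.18% of all genes did.

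Of 19 distal convoluted tubule genes 1 passed, Fxyd2, which modulates the sodium pump, at -0.95 ± 0.18 (adjusted p = 0.011). Kl, the anti-ageing hormone klotho of the distal tubule, differed by -0.60 and -1.60, an interaction of -1.0 ± 0.20 (adjusted p = 0.015). Of 16 intercalated cell genes 1 passed, Slc26a4, the pendrin anion exchanger, at -1.17 ± 0.27 (adjusted p = 0.030), a call lost in 9 of the fits that leave out 1 array. The median of this list went from -0.05 to -0.70. For comparison, 1.18% of all genes passed lower in the interaction. Of 17 collecting duct principal cell genes 2 rose and 2 fell at 7 months, where 11.7% of all genes rose and 10.8% fell. The median interaction of this list was -0.29, and its 1 interaction call was higher, where 0.96% of all genes passed higher.

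Finally, the difference of 5 genes shrank after 4 months, 2 of them predicted genes without a name (Gm15498 and Gm6929), and all 5 were named after their values were seen. Penk, the enkephalin precursor, read 6.28, 6.16, 6.44 and 6.16 in Cre+ kidneys at 4 months and 5.60, 5.63, 5.36 and 5.59 at 7 months. Its Cre- arrays read 5.06, 4.92, 5.23 and 4.93 and then 4.93, 5.40 and 5.50, so the genotypes overlapped only at 7 months. The difference went from 1.23 to 0.26, an interaction of -0.96 ± 0.19 (adjusted p = 0.012). Ppef2, a phosphatase known from photoreceptors, differed by 0.54 and -0.22, an interaction of -0.76 ± 0.15 (adjusted p = 0.017). Cyp4f39, a fatty acid hydroxylase gene, was still higher at 7 months (2.11 and 1.01), with an interaction of -1.10 ± 0.27 (adjusted p = 0.046), a call lost in 13 of the fits that leave out 1 array.

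Genes that differ between male and female kidneys were checked beside these results, since the labels give no sex. The 8 male-biased genes had a median interaction of -1.42 and the 4 Y-linked genes of -0.55. Both lists held 0 calls, where 2.14% of all genes passed, and with so few genes this does not show an equal difference. Of 5 female-biased genes 1 passed lower, where 1.18% of all genes did. The interaction of Gabrp was 2.52 in the high-Y and 2.89 in the low-Y arrays, that of Gpnmb 1.55 and 1.29, that of Slc5a2 -1.15 and -1.64, that of Hnf4a -0.70 and -0.99, and that of Cyp2d12 -2.75 and -3.09. For Reln they were 0.22 and 0.13. The values differed by over 1.5 times in 14 of the 56 named genes that passed, with no opposite signs. Among them were Slc22a26 at -1.67 and -3.55, Gatm at -0.97 and -2.06, and Haao at -0.82 and -1.74. Of the 56 calls, 26 were lost in both subsets, those of Gpnmb and Hnf4a among them, and that of Slc5a2 was lost in the high-Y arrays. The subsets hold 2 arrays a group, and 1 in the low-Y 7-month Cre- group.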

How the data were processed

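Flash-frozen kidneys from 15 mice were profiled on Affymetrix Mouse Gene 2.0 ST arrays, 1 per mouse. Per the submitters' processing notes, the deposited values, taken as log2 from their range of 1.04 to 13.12, were made by the authors with Partek 6.6 and RMA (background correction, normalization between arrays, then 1 value per probe set), which leaves relative levels of a gene across arrays. Arrays have no sequencing depth, and their number limits the precision.

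Of 41345 entries, 23521 had 1 symbol in the platform annotation, 1814 several and 16010 none. By Entrez identifier 23328 matched the RefSeq table of GRCm38.p6 and 193 kept the platform's symbol. The entry of highest mean was used for 1082 genes with several, leaving 22180 genes with no filter.

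A model of 4 group means was fitted with limma 3.58.1 (lmFit, eBayes) in R 4.3.3, tests were two-sided, and p-values were adjusted by Benjamini-Hochberg within each contrast. The fit was tested on simulated data. The submitters named an analysis of variance; its unmoderated form is the plain linear model among the alternatives. Medians and counts of 49 gene lists (1097 of 1184 members measured) are descriptions without a test. The members and lists were chosen with earlier results of these data known. Named genes were 9 given whatever their values, up to 12 interactions per direction, the 10 largest rises and 5 largest falls at full size, and up to 3 list members per direction (at most 2 as values where none passed), predicted genes excepted; the text names fewer, and says where a gene was chosen after its values were seen. Alternatives were filtering, normalization, centring, variance and array weighting, a replicate block, Y-linked values, entry choice, class limits and leaving out each array. Tables were handled in Python 3.11.15 with pandas 2.3.3 and numpy 2.4.6, and figures drawn with matplotlib 3.10.9.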

Additional observations from a re-analysis of the deposited data

Results flagged for a closer look

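The Cre+ minus Cre- difference itself differed between the ages, by limma's test of the interaction, in 56 of the genes given above, and each is listed with its log2 value (7 months minus 4 months). Among genes whose rise grew, the interactions of Mmp7 (2.38), Vcam1 (2.30), Fgg (2.05), Cd44 (2.0), H2-DMb2 (1.79), Cldn4 (1.57), Gpnmb (1.45), Cd3g (1.42), Cd68 (1.27), Col3a1 (1.19) and Ctsl (0.68) passed. Among late risers, those of Gabrp (2.65), Adgrg2 (2.53), Hpse (2.51), Fgb (2.31), Cxcl13 (2.18), Ctss (1.88), Col12a1 (1.82), Dcdc2a (1.80), C3ar1 (1.63), Cd14 (1.57), Thbs2 (1.52), Ltbp2 (1.46), Ms4a1 (1.45), Fga (1.34) and Scarb2 (0.63) did. Among genes whose fall grew, the interactions that passed were those of Dnase1 (-1.85), Tmem207 (-1.54), Egf (-1.45), Gatm (-1.36), Slc5a2 (-1.34), Nmrk1 (-1.30), Haao (-1.29), Pcx (-1.01) and Kl (-1.0). Among late falls they were those of Cyp2d12 (-3.12), Slc22a26 (-2.58), F13b (-1.72), Car4 (-1.67), Acmsd (-1.45), Slc6a19 (-1.24), G6pc (-1.20), Slc26a4 (-1.17), Dao (-1.11), Ehhadh (-0.98), Fxyd2 (-0.95), Fbp1 (-0.91), Hnf4a (-0.86), Lipa (-0.84), Ndufa9 (-0.65), Sdhb (-0.60), Uqcrfs1 (-0.60) and Idh3a (-0.58). Of the differences that shrank, those of Cyp4f39 (-1.10), Penk (-0.96) and Ppef2 (-0.76) passed.

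Of 258 sets of 4 arrays checked (1 gene in 1 group), 11 held an array set apart from the other three, by a gap larger than Dixon's limit for groups of that size, and chance alone flags about 1 in 20. Replicate 1 of the 4-month Cre+ group was such an array for Cd3g (4.48), Cd44 (4.59), Hnf4a (9.17) and Pcx (8.52), and in these 4 genes it was the array of its group nearest the mean of the 4-month Cre- kidneys. It also stood apart for Ms4a1 (3.46), where it lay below every 4-month Cre- array. In the same group replicate 2 stood apart for Fxyd2 (8.99). Among 7-month Cre+ arrays, replicate 1 stood apart for Cyp2d12 (7.06) and Ndc1 (10.41), replicate 3 for Penk (5.36), and replicate 4 for Dnase1 (7.39) and Fgg (8.86).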

How the results depend on the processing

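The interactions of the 56 named genes that passed kept their sign under every alternative run. Of these genes, 34 kept their call in all 9 other fits of all 15 arrays, 35 in all 15 fits that leave out 1 array, and 32 in both. The main counts are those of the report: 213 higher and 262 lower interactions, 68 genes at full size, 106 growing, 359 late and 5 shrinking.

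Leaving out 1 array in turn gave 108 to 228 higher and 117 to 288 lower interactions, 60 to 110 genes at full size, 57 to 111 growing, 163 to 391 late and 2 to 7 shrinking. A filter on dim genes gave 171 growing and 2 shrinking. Quantile normalization gave 359 higher interactions, and centring on the median 163 growing genes. The plain linear model gave 90 higher and 137 lower, 49 growing and 173 late, and array weights 160 growing and 9 shrinking. With the Y-linked mean as a covariate there were 429 lower interactions, 202 growing and 10 shrinking. Within arrays of high Y-linked values there were 40 higher and 19 lower, 13 growing, 46 late and 0 shrinking, and within low ones 41 higher and 47 lower, 17 growing, 70 late and 1 shrinking, where fewer arrays and groups of 1 or 2 limit the test; a group's lone array was assumed to vary like the others. All entries of the table gave 124 higher and 97 lower, 57 growing and 159 late. An interval limit of 0.75 left 44 genes at full size, and a 4-month difference of at least 0.5 gave 370. For the moves whose setting does not itself reduce the arrays or alter the class limits, the cause was not tested.

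With the replicate number as a block, 185 interactions were higher and 233 lower, and 3 genes shrank. Arrays of the same number in different groups deviated together in 11 of 21 pairs (r over 0.1), with r from -0.47 to 0.30, so the numbers were not taken to pair the mice.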
